A study of Mus musculus with 10 samples.

Results

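The genes described here belong to the unfolded protein response and the ATF4 stress response, 30 genes of the 53379 counted, in RNA sequencing of sorted dendritic cells of the mouse spleen. They were taken from a list of names and not by their values. Earlier results of these data were known when the list was chosen. It holds 16 genes of the XBP1/ATF6 arm (endoplasmic reticulum (ER) chaperones, degradation factors and Xbp1 itself), 11 genes of the ATF4 arm and 3 stress sensors. All 30 were matched to an Ensembl identifier, and 29 passed the filter on low counts. Asns, with 38 counts over all libraries, did not pass and was not tested in the main comparison.

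The 10 libraries came from individual C57BL/6 mice, 16 weeks old, and fell into 4 groups by subset label and genotype: CD11b Atg16l1 -/- (CD11b KO, n = 2), CD11b Atg16l1 +/+ (CD11b WT, n = 3), CD8 Atg16l1 -/- (CD8 KO, n = 2) and CD8 Atg16l1 +/+ (CD8 WT, n = 3). Atg16l1 is needed to attach LC3 to autophagic membranes, and the series is titled as a study of autophagy-deficient dendritic cells in a mouse model of atherogenesis. The labels used here do not give the cell type or promoter that limits the deletion, an atherogenic allele or a diet. Enzyme-digested spleens were enriched for CD11c on beads, the MHC class II-high CD11c-high fraction was sorted into CD11b+ CD8- and CD11b- CD8+ cells, and libraries were made from 7 ng of total RNA with a stranded kit for small inputs. Gene counts ran between 9467704 and 13768884 per library, and levels are given as CPM, gene counts relative to the scaled total of a library.

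The subset labels ran against the subset markers, so they are used below only as names of the libraries. Cd8a, which the CD8+ gate selects, was at 453 to 505 CPM in CD11b KO, 448 to 578 in CD11b WT, 2.70 to 4.69 in CD8 KO and 0.905 to 5.87 in CD8 WT. Itgam, which encodes CD11b, was at 1.92 to 2.62 CPM in CD11b KO, 1.58 to 2.73 in CD11b WT, 96.0 to 103.8 in CD8 KO and 76.1 to 91.0 in CD8 WT. The summed level of 10 markers of type 1 conventional dendritic cells (cDC1) was 9805 to 10640 CPM over the 5 libraries of the label CD11b and 2641 to 3024 CPM over the 5 of the label CD8, and that of 10 cDC2 markers was 95.88 to 114.4 and 1295 to 1653 CPM in the same order. The libraries of the label CD11b therefore carried the cDC1 marker profile. The genotype labels held: Atg16l1 was at 1.83 to 3.03 CPM in CD11b KO against 13.3 to 32.7 in CD11b WT, and at 1.73 to 3.31 CPM in CD8 KO against 15.2 to 19.6 in CD8 WT. The second KO library of each label stood apart in the sum of 10 B cell markers. It was 609.8 CPM in CD11b KO 2, against 270.0 in CD11b KO 1 and 280.4 to 357.1 in CD11b WT. It was 2724 CPM in CD8 KO 2, against 1014 in CD8 KO 1 and 559.9 to 1133 in CD8 WT. At the label CD11b the most abundant marker was Ighm, averaging 307.9 CPM in KO and 212.1 in WT. There the KO over WT values of the 10 were positive for 5 and negative for 5, with a median log2 fold change of −0.028. At the label CD8 all 10 were positive, with a median of 1.287.

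When unfolded proteins gather in the ER, the membrane sensors IRE1 (Ern1), PERK (Eif2ak3) and ATF6 start separate branches. IRE1 splices Xbp1 mRNA, and spliced XBP1 and cleaved ATF6 induce chaperones, disulfide isomerases and ER-associated degradation. PERK phosphorylates eIF2-alpha, which lowers translation and lets ATF4 be made. ATF4, which kinases that sense other stresses also induce, drives CHOP (Ddit3), amino acid synthesis and transport, and regulators such as Trib3, Chac1, Ddit4 and Sesn2. In mice, the IRE1 branch is known to be active in unstressed CD8+ dendritic cells. Counts per gene do not tell spliced from unspliced Xbp1 mRNA, so the activity of that branch was not measured here.

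The promoter sequences are shown because the factors of the arms act through known elements, which were searched for here. The genes were listed by their known place in the arms. Shares of windows with an element are therefore tied to that choice and are no separate evidence. Windows of 250 bases before the transcription start were available from RefSeq (GRCm38.p6) for 26 of the 30 genes, not for Hyou1, Manf, Slc7a5 and Atf6. The ER stress element (ERSE, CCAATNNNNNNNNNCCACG, either strand), bound by NF-Y with ATF6 or XBP1, was found in 6 of the 14 XBP1/ATF6-arm windows, in 0 of 10 of the ATF4 arm and in 0 of 2 sensors, against 0.13% of 27025 genes. ERSE-II (ATTGG and CCACG with 1 base between them, either strand) was found in Herpud1 and in 0.037% of genes, and the core of the unfolded protein response element (UPRE, TGACGTG, either strand) in Hspa5 and in 1.85% of genes. The C/EBP-ATF response element (CARE, TGATGNAA, either strand), bound by ATF4, was found in Asns, Chac1 and Herpud1 and in 3.91% of genes. Each stretch runs 5′ to 3′ on the strand of its gene, with the elements in capitals. A match is a run of letters, not a shown binding site. Hspa5 (chr2:34771903-34772073, plus strand) holds a UPRE core and then an ERSE, Hsp90b1 (chr10:86705503-86705686, minus strand) holds an ERSE on each strand, and Dnajc3 (chr14:118937797-118937875, plus), Pdia6 (chr12:17266461-17266539, plus), Creld2 (chr15:88819490-88819568, plus) and Syvn1 (chr19:6046502-6046575, plus) hold 1 ERSE each. Herpud1 (chr8:94386287-94386417, plus) holds a CARE on its other strand and then an ERSE-II, and Chac1 (chr2:119351019-119351086, plus) and Asns (chr6:7693210-7693262, minus) hold a CARE.
Hspa5: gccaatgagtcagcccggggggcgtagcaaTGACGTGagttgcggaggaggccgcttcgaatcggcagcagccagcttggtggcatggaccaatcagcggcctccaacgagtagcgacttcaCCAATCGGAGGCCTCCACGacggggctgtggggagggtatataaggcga
Hsp90b1: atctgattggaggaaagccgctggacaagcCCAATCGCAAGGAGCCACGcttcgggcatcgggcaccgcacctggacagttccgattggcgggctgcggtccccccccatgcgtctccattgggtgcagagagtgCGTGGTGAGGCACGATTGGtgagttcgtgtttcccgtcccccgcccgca
Dnajc3: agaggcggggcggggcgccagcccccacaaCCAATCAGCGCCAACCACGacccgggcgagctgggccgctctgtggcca
Pdia6: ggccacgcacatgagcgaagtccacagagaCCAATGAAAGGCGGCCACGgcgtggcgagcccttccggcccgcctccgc
Creld2: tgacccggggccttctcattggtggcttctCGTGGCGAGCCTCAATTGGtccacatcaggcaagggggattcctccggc
Syvn1: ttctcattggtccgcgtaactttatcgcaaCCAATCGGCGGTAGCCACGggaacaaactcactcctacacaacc
Herpud1: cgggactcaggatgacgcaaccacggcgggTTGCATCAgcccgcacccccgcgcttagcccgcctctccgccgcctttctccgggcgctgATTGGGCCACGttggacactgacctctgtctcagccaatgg
Chac1: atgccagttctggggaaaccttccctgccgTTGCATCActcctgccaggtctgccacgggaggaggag
Asns: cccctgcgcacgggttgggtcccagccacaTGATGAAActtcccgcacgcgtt

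The chaperones and folding factors gave the clearest pattern of all 30 genes: 9 of 10 were higher at the label CD11b than at the label CD8, in KO and in WT libraries, by 1.502-fold to 2.73-fold. In the KO libraries the 9 ranged from 1.57-fold (Pdia6) to 2.23-fold (Dnajc3), and in the WT libraries from 1.502-fold (Hspa5) to 2.73-fold (Manf). The median log2 fold change of all 10 was 0.98 in KO and 1.08 in WT, against −0.008 and 0.003 over all 14528 genes tested. These and all adjusted p-values below come from edgeR's quasi-likelihood test with Benjamini-Hochberg adjustment over all genes tested, with 0.05 as the threshold. Over all 29 genes tested, 15 passed in KO (12 higher, 3 lower) and 18 in WT (14 higher, 4 lower), beside a background of 22.8% of all genes in KO (10.3% higher, 12.5% lower) and 29.5% in WT (13.8% higher, 15.7% lower). The 15 genes that passed in KO also passed in WT in the same direction, and Edem1, Syvn1 and Slc3a2 passed in WT alone. The test of a difference between the KO and WT values was passed by 0 of 29 genes. Fewer cells of a type and less RNA per cell cannot be told apart in bulk libraries like these.

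**Figure D1:**
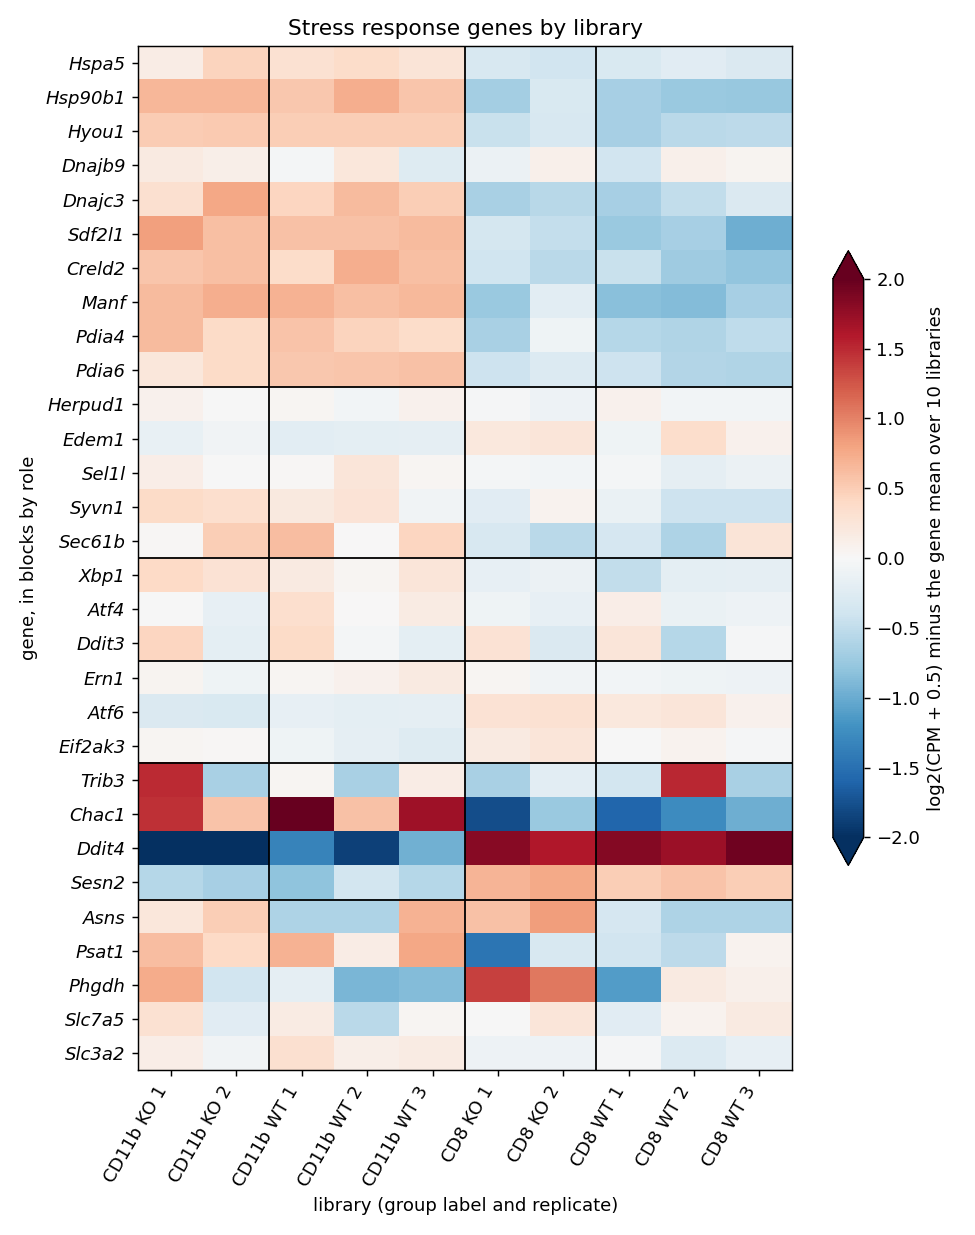
Level of the 30 genes in each of the 10 libraries, as log2(CPM + 0.5) minus the gene's mean over the libraries, with genes in blocks by role down the page and libraries by group across it. Colours run from −2 to 2. In the top block 9 of 10 chaperones and folding factors are red in the 5 libraries of the label CD11b and blue in the 5 of the label CD8, and in the block of Trib3, Chac1, Ddit4 and Sesn2 the rows do not share a direction.

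Hspa5 (BiP; ENSMUSG00000026864, chr2:34771970-34777547), the main Hsp70 chaperone of the ER, which also holds the sensors inactive, had 985 and 1202 CPM in CD11b KO, 1092, 1146 and 1058 in CD11b WT, 708 and 678 in CD8 KO, and 718.5, 754 and 722 in CD8 WT. Every library of the label CD11b was above every library of the label CD8. Libraries of the labels did not overlap for 24 of the 29 genes in KO (58.7% of all genes, with 2 libraries against 2) and for 21 of 29 in WT (41.5% of all genes). For Hspa5, the genotypes overlapped at the label CD11b, and at the label CD8 the KO libraries lay just below the WT libraries. The log2 fold change between labels was 0.66 ± 0.10 (SE) in KO (edgeR adjusted p = 1.63e-05) and 0.59 ± 0.08 in WT (edgeR adjusted p = 3.23e-06), the smallest among the 9 in WT.

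Hsp90b1 (GRP94; ENSMUSG00000020048, chr10:86690209-86705509), the ER Hsp90, which folds Toll-like receptors and integrins, had 1243 and 1252 CPM in CD11b KO, 1138, 1301 and 1149 in CD11b WT, 492 and 635 in CD8 KO, and 497, 469 and 466 in CD8 WT. The label CD11b was again above in all libraries, and CD8 KO 2 was the highest library of the label CD8. The log2 fold change was 1.15 ± 0.11 in KO (edgeR adjusted p = 1.99e-08) and 1.325 ± 0.09 in WT (edgeR adjusted p = 3.37e-11), which made Hsp90b1 the most abundant of the 30 genes per kilobase of exon at the label CD11b, with 309 CPM per kb in KO and 297 in WT. At the label CD8, Herpud1 led in both genotypes, with 180 CPM per kb in KO and 186 in WT, while Hsp90b1 had 140 in KO and 118 in WT.

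Hyou1 (GRP170), the exchange factor that resets BiP, had 289 and 294 CPM in CD11b KO, 286.2, 286 and 285.9 in CD11b WT, 149 and 163 in CD8 KO, and 129, 141 and 141 in CD8 WT. Its WT libraries at the label CD11b differed by less than 1 CPM, and its log2 fold change between labels was 0.90 ± 0.11 in KO (edgeR adjusted p = 9.43e-07) and 1.06 ± 0.09 in WT (edgeR adjusted p = 1.75e-09). Dnajc3 (P58IPK), a BiP co-chaperone that also inhibits PERK, had 162 and 222 CPM in CD11b KO, 177, 203 and 183 in CD11b WT, 83.2 and 89.1 in CD8 KO, and 82.6, 92.3 and 107 in CD8 WT. Its lowest library at the label CD11b was 1.52-fold above its highest at the label CD8, with log2 fold changes of 1.16 ± 0.15 in KO and 1.00 ± 0.12 in WT.

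Manf, a secreted ER stress factor that binds BiP, had 72.4 and 77.2 CPM in CD11b KO, 75.1, 70.5 and 73.2 in CD11b WT, 27.4 and 40.0 in CD8 KO, and 25.8, 25.1 and 29.1 in CD8 WT. Sdf2l1, a partner of the ER J-proteins, had 84.8 and 73.1 CPM in CD11b KO, 72.5, 72.4 and 74.9 in CD11b WT, 37.3 and 34.4 in CD8 KO, and 28.5, 29.97 and 24.0 in CD8 WT. These 2 had the largest differences of the chaperone group in WT, with log2 fold changes of 1.45 ± 0.15 for Manf (edgeR adjusted p = 3.52e-08) and 1.41 ± 0.135 for Sdf2l1 (edgeR adjusted p = 1.34e-08). In KO they were 1.15 ± 0.18 and 1.14 ± 0.16. The Manf span overlaps Rbm15b on the same strand, and reads that fit both genes were counted for neither.

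Pdia4 and Pdia6, disulfide isomerases, differed between labels by 0.85 ± 0.15 and 0.65 ± 0.12 on the log2 scale in KO, and by 1.03 ± 0.12 and 1.10 ± 0.10 in WT. Pdia6 had 150 and 168 CPM in CD11b KO, 187, 189 and 194 in CD11b WT, 96.6 and 106 in CD8 KO, and 96.4, 85.2 and 84.2 in CD8 WT. Its KO libraries were below all WT libraries at the label CD11b and above all at the label CD8. Creld2, a disulfide isomerase-like ER protein, had log2 fold changes of 1.06 ± 0.18 in KO and 1.23 ± 0.15 in WT. Dnajb9 (ERdj4), the co-chaperone that represses IRE1, was the exception in the group: its levels of 47.0 and 45.0 CPM in CD11b KO, 40.5, 48.6 and 34.8 in CD11b WT, 38.5 and 44.7 in CD8 KO, and 31.9, 44.6 and 43.2 in CD8 WT gave 0.15 ± 0.20 in KO (edgeR adjusted p = 0.69) and 0.05 ± 0.16 in WT (edgeR adjusted p = 0.87).

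Between the labels, 22.8% of all genes tested passed in KO and 29.5% in WT. Of the 5 genes of ER-associated degradation and translocation, 0 passed in KO, and 1 higher and 1 lower in WT. Their values were positive for 4 of 5 in both genotypes, with medians of 0.12 in KO and 0.22 in WT on the log2 scale, and their difference from the chaperones was not tested. Herpud1, which links the degradation complex to the proteasome and whose window carries ERSE-II, had 463 and 437 CPM in CD11b KO, 447, 421 and 463 in CD11b WT, 431 and 408 in CD8 KO, and 464, 421 and 418 in CD8 WT. The WT libraries of the labels overlapped, with a log2 fold change between labels of 0.10 in KO (95% interval −0.11 to 0.31) and 0.03 in WT (95% interval −0.14 to 0.20). Sel1l, the adaptor of the ubiquitin ligase, had 0.12 ± 0.12 and 0.22 ± 0.10. Syvn1 (HRD1), the ligase itself, was higher at the label CD11b in WT by 0.46 ± 0.13 (edgeR adjusted p = 0.00858), and had 0.43 ± 0.16 in KO (edgeR adjusted p = 0.0525), where it passed under 11 alternatives, DESeq2 and limma-voom among them. Edem1, which hands misfolded glycoproteins to degradation, had 141 and 150 CPM in CD11b KO, 135, 137 and 138 in CD11b WT, 180 and 185 in CD8 KO, and 147, 200.0 and 167 in CD8 WT. Edem1 was the 1 gene of these 5 that was lower at the label CD11b, by −0.33 ± 0.11 in WT (edgeR adjusted p = 0.0227), with −0.33 ± 0.13 in KO (edgeR adjusted p = 0.0754). The WT call was lost without CD11b WT 1, CD11b WT 3 or CD8 WT 2, at −0.32, −0.34 and −0.19 (edgeR adjusted p = 0.0562, 0.0521 and 0.238). Sec61b, a subunit of the translocation channel, had 0.71 ± 0.27 in KO and 0.57 ± 0.22 in WT, with edgeR adjusted p = 0.0651 and 0.0561, and it passed under 7 alternatives in KO and 5 in WT.

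The 6 genes whose windows hold an ERSE (sequences above) were all higher at the label CD11b in WT, and 5 of the 6 in KO, where Syvn1 did not pass. Of the 29 other genes with an ERSE in the genome, 11 were tested, of which 3 were higher and 0 lower in KO, and 3 were higher and 1 lower in WT. Called in either direction were 27.3% of the 11 in KO and 36.4% in WT, beside 22.8% and 29.5% of all genes. Of all genes, 10.3% were called higher in KO and 13.8% in WT, beside 3 of the 11 in each. Since the 6 genes were listed as chaperones or degradation factors to begin with, these counts say nothing of the element itself.

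Summed over members, the difference was carried by the chaperones. Their sum was 3307 and 3576 CPM in CD11b KO and 3294 to 3574 in CD11b WT, and 1752 and 1948 in CD8 KO and 1733 to 1756 in CD8 WT. The degradation and translocation genes summed to 872.8 and 899.4 CPM in CD11b KO, 860.7 to 870.2 in CD11b WT, 839.3 and 848.3 in CD8 KO, and 817.2 to 853.1 in CD8 WT. The ATF4 arm as a whole summed to 732 ± 81.4 CPM in CD11b KO, 823 ± 77.8 in CD11b WT, 763 ± 3.61 in CD8 KO and 753 ± 50.1 in CD8 WT (SD, n = 2, 3, 2 and 3), so that its groups overlapped across the labels. Atf4 and Slc3a2 made up most of that sum, with means of 317 and 355 CPM in CD11b WT and 276 and 278 in CD8 WT.

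**Figure D2:**
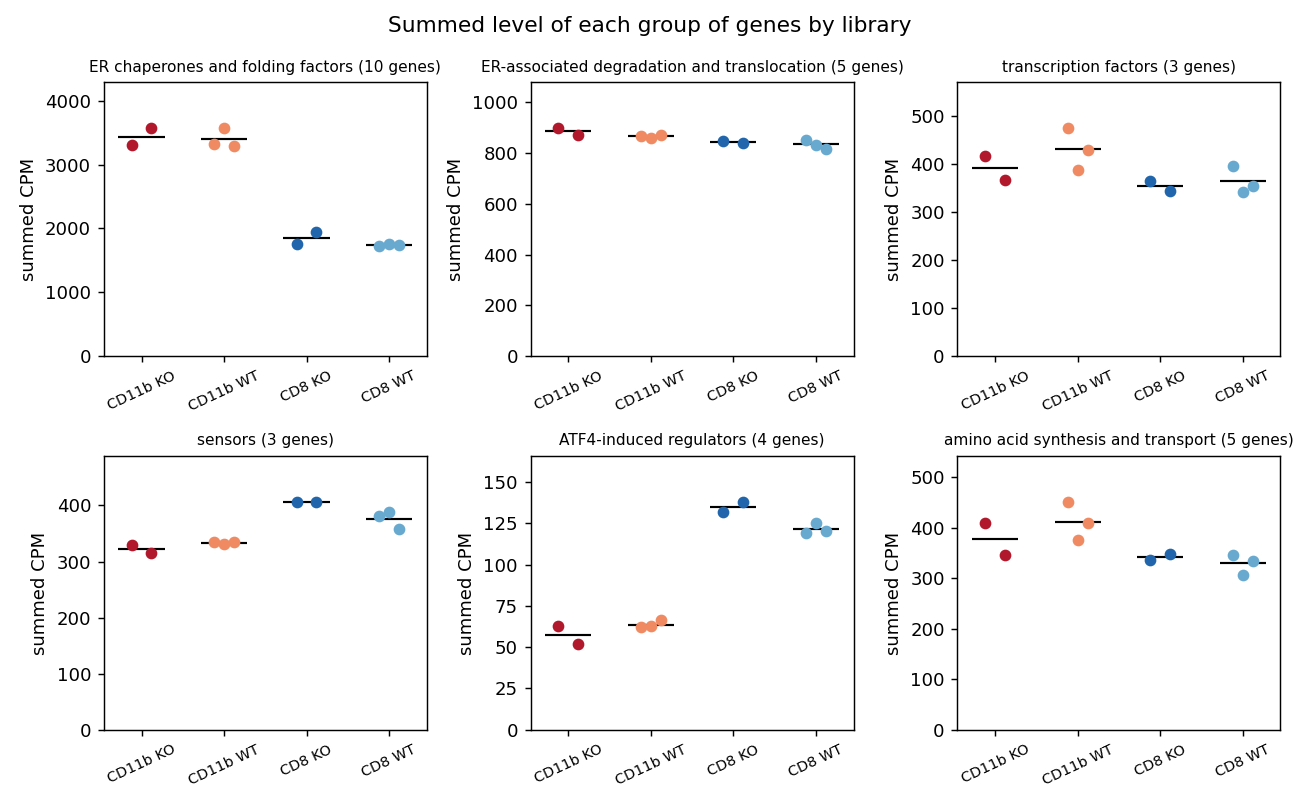
Summed CPM of the genes of each role by library (points) with the group mean (bar), for the groups CD11b KO, CD11b WT, CD8 KO and CD8 WT, on axes that start at 0. The chaperone sums of the label CD11b (3294 to 3576) lie above those of the label CD8 (1733 to 1948), and the sums for degradation and translocation span 817.2 to 899.4 over all libraries. The sums for ATF4-induced regulators, of which Sesn2 is the largest part, run the other way from the chaperones. Chac1 in that block runs with the chaperones.

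Among the transcription factors, Xbp1 alone passed. Xbp1 (ENSMUSG00000020484, chr11:5520659-5525893) had 98.9 and 92.0 CPM in CD11b KO, 85.3, 77.6 and 88.8 in CD11b WT, 67.2 and 69.8 in CD8 KO, and 53.4, 66.0 and 66.3 in CD8 WT. The labels did not overlap, with log2 fold changes of 0.48 ± 0.15 in KO (edgeR adjusted p = 0.0186) and 0.44 ± 0.12 in WT (edgeR adjusted p = 0.00689). Without CD8 WT 1 the WT value was 0.34 (edgeR adjusted p = 0.059). In KO it was 0.43 without CD11b KO 1, 0.45 without CD8 KO 1 and 0.51 without CD8 KO 2 (edgeR adjusted p = 0.119, 0.116 and 0.0637), fits in which 1 KO library is left at a label and is taken to vary like the other groups. Atf4 (ENSMUSG00000042406, chr15:80255184-80257541), which is controlled mostly at translation, had 280.0 and 251 CPM in CD11b KO, 353, 283 and 315.5 in CD11b WT, 264 and 251 in CD8 KO, and 309, 257.5 and 261 in CD8 WT. Its log2 fold change between labels was 0.05 ± 0.12 in KO and 0.20 ± 0.10 in WT, with edgeR adjusted p = 0.856 and 0.143. Ddit3 (CHOP), the pro-apoptotic factor downstream of ATF4, had 18.7 to 37.7 CPM over all libraries and 0.12 ± 0.28 and 0.16 ± 0.23 between labels in KO and in WT. Ddit3 lies antisense to Mars, and the counts used were those of its own strand.

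Of the 3 sensors, Atf6 (ENSMUSG00000026663, chr1:170704674-170867771) was lower at the label CD11b, opposite in direction to the chaperones its product induces. It had 148.6 and 146.6 CPM in CD11b KO, 160, 158 and 159 in CD11b WT, 220 and 223 in CD8 KO, and 210, 215 and 191 in CD8 WT. The labels did not overlap, and the log2 fold change was −0.59 ± 0.11 in KO (edgeR adjusted p = 0.000308) and −0.37 ± 0.09 in WT (edgeR adjusted p = 0.00301). Ern1 had 97.27 to 117.3 CPM over the 10 libraries and did not pass in either genotype, with −0.003 ± 0.13 in KO and 0.18 ± 0.10 in WT. Eif2ak3 had 59.15 to 83.44 CPM, with −0.17 ± 0.14 and −0.19 ± 0.11. Per kilobase of exon the 3 sensor mRNAs were at 10.41 to 24.01 CPM in the group means, below Atf4 at 109 to 135.

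**Figure D3:**
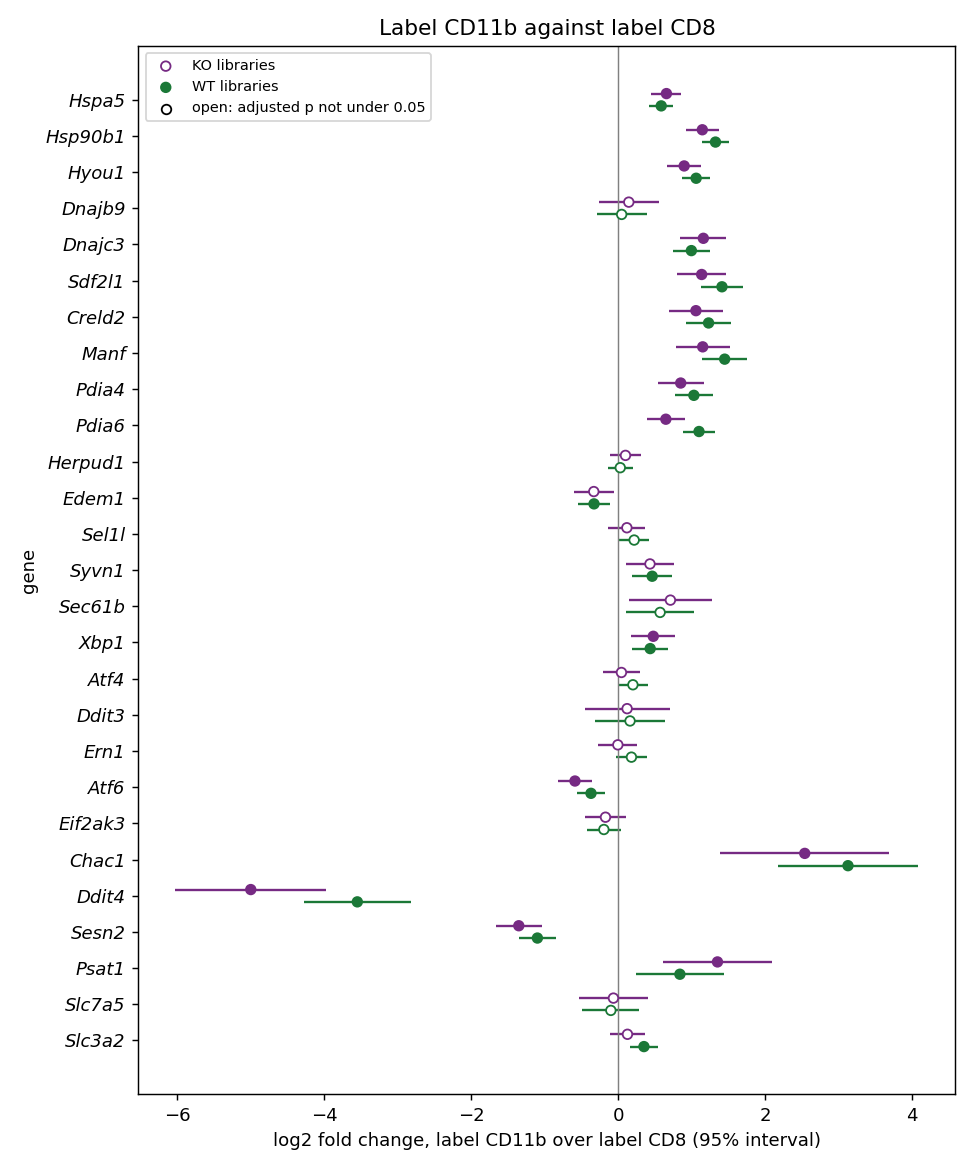
Log2 fold change of the label CD11b over the label CD8 for each gene tested, with 95% intervals, in KO (purple) and in WT (green) libraries. Filled points passed an edgeR adjusted p of 0.05, and Trib3 and Phgdh, whose intervals are far wider, are left out. The chaperones from Hspa5 to Pdia6 other than Dnajb9 lie between 0.59 and 1.45, and Chac1 and Ddit4 lie farthest from 0 on opposite sides.

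The ATF4 arm held calls in both directions, as did the whole table. Of all genes, 10.3% were higher and 12.5% lower at the label CD11b in KO, and 13.8% and 15.7% in WT. Of the 10 ATF4-arm genes tested, 2 were higher and 2 lower in KO, and 3 higher and 2 lower in WT. Their medians were 0.085 and 0.03 on the log2 scale. Chac1, which breaks down glutathione, and Psat1, of serine synthesis, were higher. Ddit4 (REDD1) and Sesn2, both inhibitors of mTORC1, were lower.

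Chac1 (ENSMUSG00000027313, chr2:119351229-119354381), whose window carries a CARE, had 13.4 and 7.08 CPM in CD11b KO, 20.1, 7.17 and 16.0 in CD11b WT, 0.988 and 2.53 in CD8 KO, and 1.19, 1.63 and 2.08 in CD8 WT. The labels did not overlap, although libraries of a group differed by up to 2.81-fold, and the log2 fold change was 2.54 ± 0.55 in KO (edgeR adjusted p = 0.00126) and 3.13 ± 0.46 in WT (edgeR adjusted p = 9.3e-06). Its counts were low at the label CD8, at 11 to 29 per library. Psat1 had 20.7 and 17.8 CPM in CD11b KO, 21.7, 14.7 and 23.0 in CD11b WT, 4.53 and 10.54 in CD8 KO, and 10.04, 9.05 and 14.0 in CD8 WT. It passed with 1.35 ± 0.36 in KO (edgeR adjusted p = 0.00702) and 0.84 ± 0.29 in WT (edgeR adjusted p = 0.0292). In KO it had 1.24 without CD11b KO 1 and 0.865 without CD8 KO 1 (edgeR adjusted p = 0.0515 and 0.159), again with 1 library left at that label. In WT it had 0.72 to 0.78 without CD11b WT 1, CD11b WT 3, CD8 WT 1 or CD8 WT 2 (edgeR adjusted p = 0.0854, 0.114, 0.088 and 0.117).

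Ddit4 (ENSMUSG00000020108, chr10:59949669-59951834) had the largest difference of the 30 genes. It stood at 0.404 and 0.583 CPM in CD11b KO, 1.52, 0.905 and 2.14 in CD11b WT, 17.5 and 15.0 in CD8 KO, and 17.7, 16.2 and 19.1 in CD8 WT, and 4 and 7 counts lie behind the CD11b KO values. The log2 fold change was −4.995 ± 0.49 in KO (edgeR adjusted p = 3.58e-08) and −3.55 ± 0.35 in WT (edgeR adjusted p = 2.23e-08). Sesn2 (ENSMUSG00000028893, chr4:132492032-132510501) had 47.3 and 44.3 CPM in CD11b KO, 40.1, 54.5 and 47.7 in CD11b WT, 113 and 120 in CD8 KO, and 99.8, 105.5 and 99.2 in CD8 WT. Its log2 fold change was −1.35 ± 0.15 in KO (edgeR adjusted p = 2.71e-07) and −1.10 ± 0.12 in WT (edgeR adjusted p = 1.78e-07), close in size to that of the chaperones and opposite in sign. The labels did not overlap for Ddit4 or Sesn2.

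**Figure D4:**
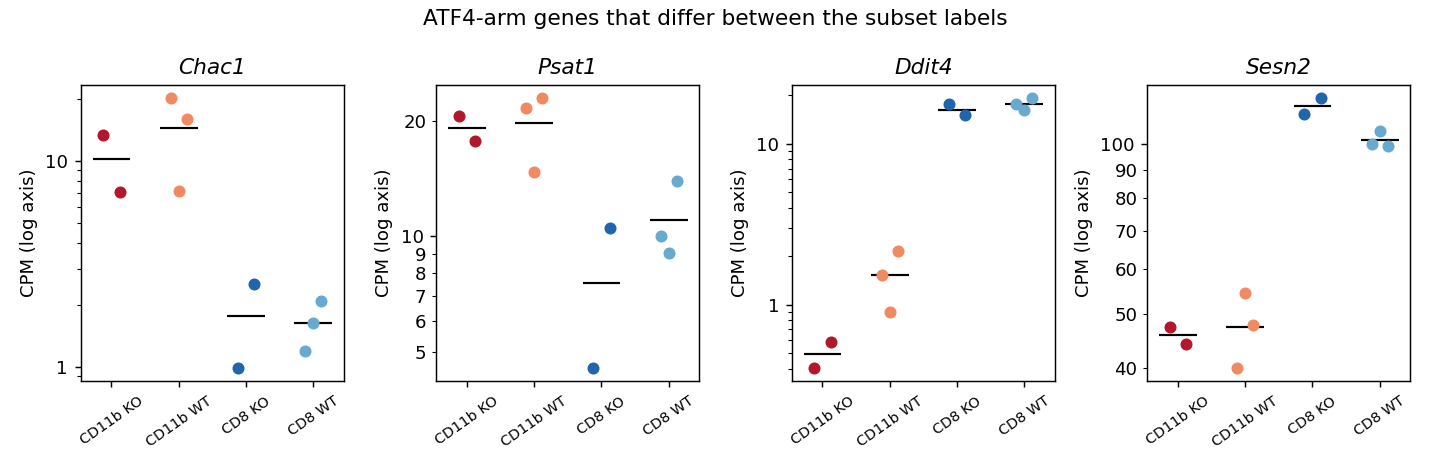
CPM of Chac1, Psat1, Ddit4 and Sesn2 by library on log axes, with points for libraries and bars for group means, for CD11b KO, CD11b WT, CD8 KO and CD8 WT. Chac1 (7.08 to 20.1 against 0.988 to 2.53) and Psat1 (14.7 to 23.0 against 4.53 to 14.0) are higher at the label CD11b, and Ddit4 (0.404 to 2.14 against 15.0 to 19.1) and Sesn2 (40.1 to 54.5 against 99.2 to 120) are higher at the label CD8.

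Among the members, amino acid transport was read from Slc3a2 and Slc7a5 alone, and the cystine transporter Slc7a11, of another list, is given below. Slc3a2 (CD98 heavy chain), with 294.5 to 385.5 CPM in the libraries of the label CD11b and 256.2 to 302.6 CPM in those of the label CD8, passed in WT at 0.35 ± 0.09 (edgeR adjusted p = 0.00529) and had 0.13 ± 0.11 in KO (edgeR adjusted p = 0.505). Its partner Slc7a5 (LAT1), with 27.16 to 48.84 CPM over all libraries, had −0.06 ± 0.23 and −0.10 ± 0.19. Trib3, a pseudokinase that restrains ATF4, was read mainly in 2 libraries: its counts were 17 and 0 in CD11b KO, 4, 0 and 4 in CD11b WT, 0 and 2 in CD8 KO, and 1, 19 and 0 in CD8 WT. Phgdh, the first enzyme of serine synthesis, had 13 and 4 counts in CD11b KO, 6, 1 and 1 in CD11b WT, 28 and 20 in CD8 KO, and 0, 8 and 7 in CD8 WT. Trib3 and Phgdh had intervals too wide to place a difference between labels in either direction, and did not pass.

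Sums of several marker lists of other cells, and of handling genes, moved with the labels. Immediate early and heat shock genes that rise when tissue is dissociated, a list of 15, summed to 6792 and 6935 CPM in CD11b KO, 7041 to 8901 in CD11b WT, 9888 and 11840 in CD8 KO, and 11870 to 16090 in CD8 WT. This sum was higher in every library of the label CD8, as were Ddit4 and Sesn2. Among all genes, 12.5% were lower at the label CD11b in KO and 15.7% in WT. Of the 15 listed, 8 were lower and 0 higher in each genotype. Their part in the differences between labels was not tested. Sums of 10 plasma cell markers, cells that make much chaperone mRNA, were lower in all 5 libraries of the label CD11b (126.1 to 165.9 CPM) than in those of the label CD8 (294.4 to 527.8), as were B cell markers (270.0 to 609.8 against 559.9 to 2724 CPM, with CD11b KO 2 above CD8 WT 3), red pulp macrophage markers (148.7 to 204.4 against 265.5 to 450.6) and monocyte markers (191.3 to 228.7 against 334.5 to 490.2). The sums of 10 plasmacytoid dendritic cell markers overlapped (169.8 to 249.0 against 208.1 to 285.1 CPM), with 3 higher and 3 lower at the label CD11b in KO and 4 higher and 2 lower in WT. Siglech among them was at 23.16 to 24.02 CPM in CD11b KO, 13.05 to 33.64 in CD11b WT, 0.58 to 1.13 in CD8 KO and 1.08 to 2.37 in CD8 WT. The part of these cells in the chaperone differences was not tested. Xbp1 and Irf4, which dendritic cells also express, are among the plasma cell markers. Irf4, also on the cDC2 list, was the most abundant of them at the label CD8, averaging 329.7 CPM in CD8 KO and 207.6 in CD8 WT. It averaged 40.08 CPM in CD11b KO and 32.39 in CD11b WT, while Xbp1 was higher at the label CD11b. Of these markers, Fkbp11 was at 0 in CD11b KO and Tnfrsf17 at 0 in CD11b WT and in CD8 WT. Neutrophil markers summed to at most 5.508 CPM and T and NK cell markers to at most 19.98 CPM in any library.

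The rest of the pathway was read from lists of other genes. Of 48 tested other genes of ER folding, translocation and degradation, 27 were higher and 0 lower at the label CD11b in KO (median log2 fold change 0.575), and 30 higher and 0 lower in WT (median 0.66). These were 56.25% and 62.5% of the list, beside 10.3% of all genes higher in KO and 13.8% in WT. Pdia5, a disulfide isomerase, averaged 94.8 ± 12.6 CPM in CD11b KO and 119 ± 14.7 in CD11b WT, and 6.16 ± 1.07 in CD8 KO and 7.21 ± 2.16 in CD8 WT (SD), which gave 3.94 ± 0.23 in KO (edgeR adjusted p = 5.91e-12) and 4.03 ± 0.19 in WT (edgeR adjusted p = 5.39e-14). Pdia3, which folds MHC class I in the peptide-loading complex, had 1.31 ± 0.12 and 1.52 ± 0.10. Calr, the lectin chaperone whose window also holds an ERSE, had 0.95 ± 0.09 and 0.90 ± 0.08. P4hb, the archetype of the isomerases, had 1.145 ± 0.08 in WT, and Rpn1, of the oligosaccharyltransferase, 1.265 ± 0.12 in KO.

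Of 36 other ATF4 and amino acid response genes tested, 9 were higher and 6 lower in KO, and 13 higher and 5 lower in WT. These were 41.67% of the list in KO and 50% in WT, beside 22.8% and 29.5% of all genes, which were also called in both directions. Cebpb, a partner of ATF4, had 14.3 ± 2.20 CPM in CD11b KO and 7.77 ± 3.23 in CD11b WT, and 114 ± 1.38 in CD8 KO and 126 ± 23.2 in CD8 WT, with −2.99 ± 0.24 in KO (edgeR adjusted p = 1.27e-09) and −4.04 ± 0.21 in WT (edgeR adjusted p = 3.65e-13). Slc7a11, the cystine transporter, had −2.75 ± 0.325 and −3.29 ± 0.28. Jdp2, a repressor of the AP-1 family, had 1.496 ± 0.12 and 1.55 ± 0.10, and Got1, the cytosolic aspartate aminotransferase, 1.065 ± 0.17 and 1.55 ± 0.14. Of 21 eIF2 kinases, eIF2B subunits and sensor regulators, 6 were higher and 1 lower in KO, and 8 higher and 1 lower in WT, which is 33.33% and 42.86% of them beside the same 22.8% and 29.5%. Rtcb, the ligase that joins spliced Xbp1 mRNA, was among those higher, with 1.04 ± 0.13 in KO (edgeR adjusted p = 1.12e-06) and 1.38 ± 0.11 in WT (edgeR adjusted p = 3.15e-10). Eif2b2 (1.45 and 1.57) and Creb3 (0.86 and 0.96) were higher in both, Eif2s1 in KO (0.72), and Traf2, which binds activated IRE1, was lower in WT (−0.79).

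Transcripts that IRE1 is known to cut were read as well. Of 5 tested, 2 were higher and 1 lower in KO, and 2 higher and 2 lower in WT. These were 60% and 80% of them, beside 22.8% and 29.5% of all genes, which were also called in both directions. Itgb2, the beta-2 integrin chain, was lower at the label CD11b, by −0.36 ± 0.115 in KO (edgeR adjusted p = 0.0242) and −0.59 ± 0.09 in WT (edgeR adjusted p = 2.83e-05). Tapbp and Erp44 were higher, at 0.35 and 0.67 in KO and at 0.41 and 0.80 in WT, and Hgsnat was lower in WT, at −0.68.

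Between KO and WT, none of the 29 genes passed the threshold. By edgeR's quasi-likelihood test, 0 of 29 passed in KO against WT at the label CD11b and 0 of 29 at the label CD8, beside a background of 0.145% of all genes at each label. The mean of both labels (background 0.289%) and the difference of the KO effects between the labels (background 0.0206%) also gave 0 of 29. DESeq2 and limma-voom gave 0 in each of these comparisons too. At an unadjusted p under 0.05 there were 3 genes at the label CD11b, 2 at the label CD8, 6 for the mean and 2 for the difference, while 6.42%, 6.52%, 8.43% and 5.46% of all genes were under it. The KO and WT libraries did not overlap for 9 of 29 genes at the label CD11b (20.5% of all genes) and for 9 of 29 at the label CD8 (24% of all genes).

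How much change the data allow differs by gene. The 95% interval of the log2 fold change lay within 2-fold either way for 25 of 29 genes at each label, and within 1.41-fold for 19 at the label CD11b and 16 at the label CD8. Hspa5 was the most tightly bounded chaperone, with a 95% interval of −0.19 to 0.18 around −0.007 for the label CD11b, and of −0.26 to 0.11 around −0.08 for the label CD8. Herpud1 had 0.02 (−0.17 to 0.21) and −0.05 (−0.24 to 0.14). Trib3, Chac1 and Phgdh were not bounded within 2-fold at either label, nor Ddit4 at the label CD11b and Psat1 at the label CD8.

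**Figure D5:**
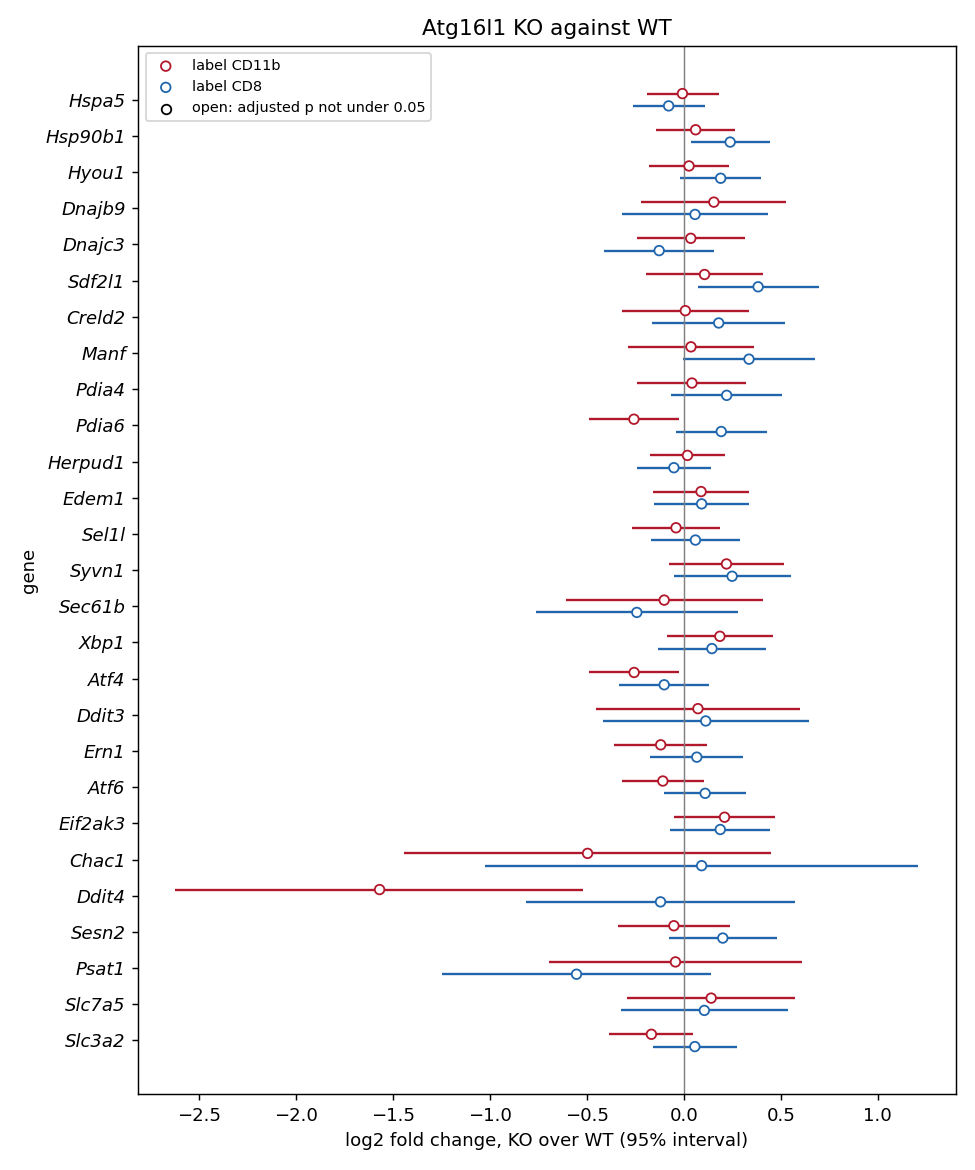
Log2 fold change of KO over WT for each gene tested, with 95% intervals, at the label CD11b (red) and the label CD8 (blue). Trib3 and Phgdh are left out for their width. Open points mark an edgeR adjusted p not under 0.05, which is every point shown, and Ddit4 at the label CD11b (−1.57) lies farthest from 0.

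At the label CD11b, Ddit4 was at 0.404 and 0.583 CPM in KO against 1.52, 0.905 and 2.14 in WT, which did not overlap and gave −1.57 ± 0.51 (unadjusted p = 0.00531, edgeR adjusted p = 0.551) from 11 counts in KO and 55 in WT. At the label CD8, where its counts were 385 and 545, it had −0.12 (95% interval −0.81 to 0.57), and the test of the difference between the labels gave an edgeR adjusted p of 0.866. Atf4 was lower in both KO libraries at the label CD11b than in its 3 WT libraries, at −0.26 ± 0.11 (edgeR adjusted p = 0.726), and had −0.10 (−0.33 to 0.13) at the label CD8. The sums of the dissociation genes were lower in KO than in WT at both labels (values above), and Atf4 and those sums were highest within each label in the same libraries, CD11b WT 1 and CD8 WT 1. Their part in the Atf4 values was not tested.

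The chaperones had positive KO over WT values at the label CD8 in 8 of 10 cases, with a median of 0.19 on the log2 scale against 0 over all genes, and 0 of 10 passed. Sdf2l1 had 0.38 ± 0.15 (edgeR adjusted p = 0.635) and Hsp90b1 0.24 ± 0.10 (edgeR adjusted p = 0.654). Without CD8 KO 2, which leaves 1 KO library at the label, Hsp90b1 had 0.05, Manf 0.05 in place of 0.34 and Pdia4 −0.08 in place of 0.22. Hyou1 had 0.13 in place of 0.19, while Sdf2l1 had 0.445. Hsp90b1, Manf, Pdia4 and Hyou1 were higher in CD8 KO 2 than in CD8 KO 1, at ratios of 1.29, 1.46, 1.48 and 1.1. Leaving out the higher library lowers such values whatever its reason. CD8 KO 2 was high in B cell markers, while the 10 plasma cell markers summed to 527.8 CPM against 500.6 in CD8 KO 1. Mzb1 among them, an ER cochaperone of B and plasma cells, ranged from 5.68 to 22.4 CPM over the CD8 KO libraries. The most abundant of the list in CD8 KO were Irf4, Xbp1 and Jchain. Sdf2l1, Creld2 and Hspa5 were lower in CD8 KO 2 than in CD8 KO 1, at ratios of 0.922, 0.908 and 0.958. The part of B or plasma cells in these values was not tested. Pdia6 had values of opposite sign, −0.26 ± 0.11 at the label CD11b and 0.19 at the label CD8, and its difference of −0.45 ± 0.16 had an unadjusted p of 0.00988 and an edgeR adjusted p of 0.859.

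Asns, the asparagine synthetase and a textbook ATF4 target, whose window carries a CARE close to the start, had 4 and 7 counts in CD11b KO, 0, 0 and 8 in CD11b WT, 8 and 10 in CD8 KO, and 1, 0 and 0 in CD8 WT. At the label CD8 the KO libraries held 18 counts against 1 in WT, a ratio of 23.5 with a 95% counting interval of 3.71 to 980.0 that leaves out the spread between mice. In a fit without the filter on low counts this gave a log2 fold change of 4.11 with an unadjusted p of 0.0797 and an edgeR adjusted p of 0.977. Phgdh went the same way at both labels without passing, with 17 counts in KO against 8 in WT at the label CD11b and 48 against 15 at the label CD8. Of the 17, 13 were in CD11b KO 1 and 4 in CD11b KO 2, against 6 in CD11b WT 1. Psat1, of the same synthesis, had −0.04 ± 0.31 at the label CD11b and −0.55 ± 0.33 at the label CD8. For the mean of both labels, 4 of the 10 ATF4-arm genes tested had positive values and 6 negative ones.

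The other lists gave 0 calls in KO against WT as well, over 48 ER genes, 36 ATF4 genes, 21 eIF2 and sensor regulators and 5 IRE1 substrates, at both labels. The smallest p among them belonged to Cebpb at the label CD11b, with 14.3 ± 2.20 CPM in KO against 7.77 ± 3.23 in WT and a log2 fold change of 0.90 ± 0.24 (unadjusted p = 0.00093, edgeR adjusted p = 0.244). At the label CD8 it belonged to Got1, with 115 ± 5.01 CPM in KO against 81.2 ± 22.5 in WT and 0.495 ± 0.15 (unadjusted p = 0.00344, edgeR adjusted p = 0.365). Among the ER genes, Ssr1 and Erlec1 had −0.33 and −0.47 at the label CD11b, and Ero1lb and Txndc5 had 0.39 and 0.40 at the label CD8, none past the threshold.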

How the data were processed

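Sorted spleen dendritic cells were sequenced as 10 stranded total RNA libraries. Per the submitters' processing notes, STAR 2.5.0a was run against GRCm38, and the authors deposited raw counts per gene, for 53379 genes in each file. The annotation release, trimming and handling of duplicates are not given in the sources used here. The strand column used held 13.49 to 17.71 times the counts of the opposite one. Rows that name no gene held 59.19% to 67.83% of reads, multimapping reads 21.73% to 25.53%, and these stayed out of library sizes. Without molecular identifiers, counting intervals cover counting error only.

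Symbols, positions and exon lengths came from GENCODE M21 (53274 identifiers found, 105 not). Groups followed the labels. CPM were scaled by TMM. The filterByExpr filter by group kept 14528 genes, and 4 group means were fitted to all 10 libraries with edgeR 4.0.16 (quasi-likelihood test, dispersion 0.086, degrees of freedom 6 residual and 16.1 prior). P-values were adjusted by Benjamini-Hochberg over all genes tested, and SE is the log2 fold change over the square root of F. The within-group correlation of log CPM was 0.946 to 0.958. The model was tested on simulated counts, in R 4.3.3 with Python 3.11.15 for other steps.

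The members, the other lists and the rule for naming genes were chosen with earlier results of these data known. All members are described. Of each other list, at most 4 called genes with the smallest p were named per comparison, or the 2 with the smallest p where none was called. Of 253 list entries, 251 matched by symbol and 2 by synonym. Alternatives were RLE size factors, no filter, 1 CPM in 3 libraries, unstranded counts, a replicate block, removal of immunoglobulin genes, libraries left out, fits on the compared libraries only, limma-voom with quality weights (limma 3.58.1) and DESeq2 1.42.0.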

Additional observations from a re-analysis of the deposited data

How the results depend on the processing

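Counts of called genes among the 29 tested kept their side under every alternative. In KO against WT, at each label, for the mean and for the difference, the count was 0 under all of them. For the label CD11b against the label CD8 it was 13 to 17 in KO and 16 to 19 in WT when single libraries were left out, with 15 and 18 in the fit to all libraries. Over all results and settings, 3377 values stayed on their side, 16 lost a call and 23 gained one, and no called value changed sign; 165 of 2733 values without a call in either fit did. Lost calls concerned Xbp1, Edem1 and Psat1. Gained ones were Syvn1 in KO (adjusted p from 0.0349 with limma-voom to 0.0498 with edgeR) and Sec61b in both genotypes (from 0.00687 to 0.0485, both with edgeR). Leaving out a KO library leaves 1 at that label. Beyond fewer samples or another set of genes tested, the cause was not tested. Deviations of same-numbered libraries correlated at 0.018 to 0.049 across labels within a genotype and at −0.037 to 0.059 across genotypes, none over 0.1, so the numbers were not taken as pairs. Across labels each library correlated best with its own number, a hint from the data and not from the design. With the replicate number as a block, 17 members passed in KO (14 higher, 3 lower) and 19 in WT (15 higher, 4 lower), and 0 between genotypes. The background of KO against WT depended on the setting: at the label CD11b 21 genes of the whole table passed, 42 with DESeq2, 71 without the filter and 13 with CD11b WT 1 and CD8 KO 2 left out. At the label CD8 21 passed, 59 with DESeq2, 63 with limma-voom, 78 with only the compared libraries, 142 without the filter, 53 without CD8 KO 1 and 7 without CD8 KO 2. With 2 KO libraries per label and 0 to 29 counts per library, Asns, Trib3, Phgdh and, in part, Chac1 and Ddit4 are limited by depth.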
